A study of Mus musculus with 18 samples.

Results

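The 33 genes described here encode enzymes, transporters and regulators of glycolysis (20 genes) and members of the hypoxia-inducible factor (HIF) pathway (13 genes). They were listed by symbol, and each symbol was matched to 1 Ensembl gene among the 50600 of the deposited count table. The HIF genes are HIF1A itself, its prolyl hydroxylases and genes that HIF is known to induce. They were measured by mRNA-seq in bone marrow-derived macrophages (BMDMs) of WT and IRF5-/- mice, cultured for 8 days with GM-CSF. IRF5 is a transcription factor of the inflammatory response and defactinib inhibits the kinases PYK2 and FAK. In each genotype the groups were unstimulated, 2 h of LPS (100 ng/ml) after 1 h with DMSO, and 2 h of LPS after 1 h with 3.5 μM defactinib, with 3 libraries each. The unstimulated libraries are labelled as DMSO treated in the series text but marked as untreated in the count table. A figure legend of the study places DMSO or defactinib before unstimulated and LPS time points alike. The sources thus differ on whether these libraries received vehicle. The 3 libraries per group are described as biological replicates, and nothing further says whether they came from separate mice. The knockout is carried by the whole animal, and a culture of this kind can hold dendritic cells beside macrophages.

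Glycolysis turns glucose into pyruvate in the cytosol and gains ATP without oxygen, and macrophages stimulated through Toll-like receptors are known to rely on it. HIF1A is made all the time and is hydroxylated by prolyl hydroxylases, which marks it for destruction. When oxygen is low, or when inflammatory signals raise its transcription, the protein builds up and binds short DNA motifs near genes for glycolysis, oxygen delivery and cell survival. Several HIF targets, such as Egln3, are themselves brakes on the pathway.

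Counted read pairs ranged from 39282181 to 61949143 per library, and levels are given as CPM (read pair counts scaled to library size with TMM factors). All 33 genes passed the filter on low counts. A gene is called below when its adjusted p from edgeR's quasi-likelihood F test was under 0.05 and its log2 fold change was beyond 1 in size. The targeted gene, *Irf5*, was at 587, 606 and 650.3 CPM in unstimulated WT libraries and at 335, 397 and 364 CPM in unstimulated IRF5 KO libraries, a log2 fold change of 0.75 (SE 0.16, adjusted p = 0.00492). After LPS with DMSO the libraries were at 434, 475 and 443 CPM in WT and 435, 431 and 345 CPM in IRF5 KO, and with defactinib at 213, 234 and 379 CPM and 364, 392 and 353 CPM. The log2 fold change, WT minus IRF5 KO, was 0.16 (adjusted p = 0.428) after LPS with DMSO and -0.42 (adjusted p = 0.0545) after LPS with defactinib, or 0.056 (adjusted p = 0.784) and -0.43 (adjusted p = 0.0268) in a fit without IRF5 KO LPS DMSO replicate 3. Counts over the whole gene do not show which exons were removed, so these levels are no check of the labels. Macrophage markers, none of them at 0, summed to 9748 to 10325 CPM in WT LPS DMSO and 10869.9 to 15234 CPM in WT LPS defactinib. In IRF5 KO they summed to 9936 to 12511 CPM after LPS with DMSO and 18338 to 19257 CPM after LPS with defactinib. Unstimulated libraries were at 9849 to 10191 CPM in WT and 10388 to 14762 CPM in IRF5 KO. For defactinib in WT 2 of the 9 markers were called higher and 2 lower, with log2 fold changes from -1.93 to 3.79. For defactinib in IRF5 KO 0 were called. The part of these markers in the defactinib and genotype differences was not tested. Dendritic cell markers summed to 2637 to 2778 CPM in unstimulated WT and 2241 to 2308 CPM in unstimulated IRF5 KO libraries. After LPS with DMSO they were at 3011.5 to 3193 CPM in WT and 2345 to 3014 CPM in IRF5 KO. After LPS with defactinib they were at 2563 to 3162.5 CPM and 2923 to 2998 CPM. Their part in the LPS and genotype differences was not tested. Neutrophil markers summed to 62.9 to 89.6 CPM in unstimulated libraries and 117 to 237 CPM after LPS, whose part in the LPS differences was not tested, fibroblast markers to at most 5.75 CPM and T, B and NK cell markers to at most 1.14 CPM. Mast cell and basophil markers summed to 8.06 to 15.7 CPM in the WT libraries and 43.2 to 73.2 CPM in the IRF5 KO libraries, and their part in the genotype differences was not tested. In bulk RNA, fewer cells of a type and less RNA per cell cannot be told apart.

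Over the 33 genes, WT LPS defactinib libraries lay medians of 0.133, 0.232 and 0.238 on the log2 scale from the mean of their group's others. One library of another group stood apart more than any other. Over the 33 genes, IRF5 KO LPS DMSO replicate 3 differed from the mean of replicates 1 and 2 by a median of 0.515 on the log2 scale, whereas replicates 1 and 2 differed from each other by 0.029. It lay outside their range for 32 of the 33 genes. Its nearest group over these genes was unstimulated IRF5 KO (median difference 0.212), followed by unstimulated WT (0.26). Replicates 1 and 2 were nearest to IRF5 KO LPS defactinib, at 0.127 and 0.144. Their distances to the mean of their own group's other libraries, which includes replicate 3, were 0.246 and 0.276. The plot of the IRF5 KO libraries shows these differences gene by gene, and counts of called genes, values of the called genes and medians that rest on this group are also given without replicate 3. Replicate 3 did not lie with the unstimulated IRF5 KO libraries for every gene. Its *Adm* (1.76 CPM) and *Ndrg1* (141 CPM) were above all of them (at most 0.0935 and 64.6 CPM). Its *Pfkfb4* (18.2 CPM) was below all of them (at least 28.4 CPM). Whether its label is right was not tested, and values of the group that include it are uncertain for that reason. No cause was tested.

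**Figure D1:**
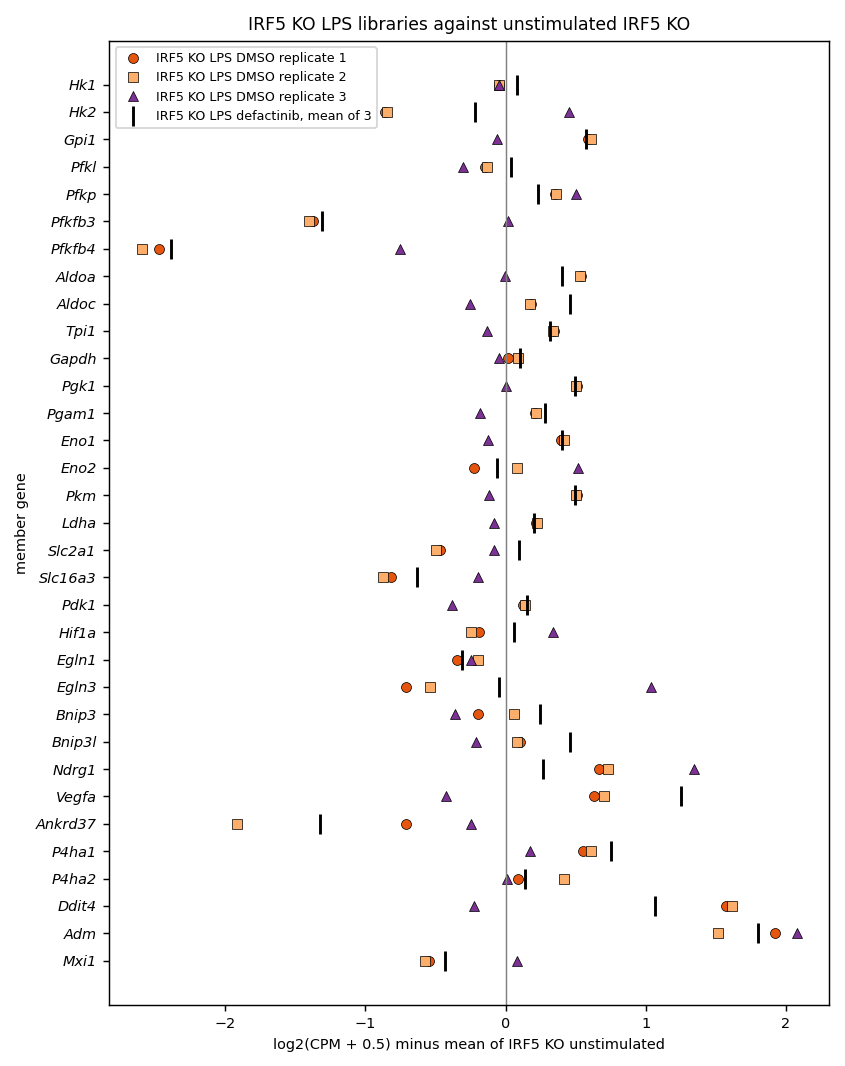
Each IRF5 KO LPS DMSO library (symbols by replicate) and the defactinib-treated, LPS-stimulated IRF5 KO mean over 3 libraries (black bars), each as log2(CPM + 0.5) minus the mean of the unstimulated IRF5 KO libraries, for the 33 genes. Replicates 1 and 2 lie together and replicate 3 lies outside their range for 32 genes.

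HIF binds a short core motif, ACGTG, or its variant with a first G, GCGTG, and matches to each were searched for on either strand of the RefSeq promoter windows (GRCm38.p6, from 250 bases before to 50 after a start site). CACGTG holds ACGTG on both strands. Of the 33 genes 31 had windows, 44 in all. ACGTG was found in 56.8% of these windows against 19.6% of all 32851, GCGTG in 54.5% against 32.4%, and either one in 79.5% against 43.8%. At least 1 window held either motif in 28 of the 31 genes, 90.3% against 46.7% of all 27025 genes, with a mean of 1.42 windows per gene against 1.22. A match is a run of letters and not a bound site. The genes were listed for known roles in glycolysis and the HIF pathway. All promoters were not matched to theirs for base content or expression. The higher shares are therefore no result of these libraries. The 250 bases before the start site are shown for the 4 genes with a window and the largest called changes with LPS or defactinib in WT cells, 5′ to 3′ along the gene. Capitals mark ACGTG or the variant GCGTG, which appear as CACGT or, for the variant, CACGC where the match is on the other strand:
Adm: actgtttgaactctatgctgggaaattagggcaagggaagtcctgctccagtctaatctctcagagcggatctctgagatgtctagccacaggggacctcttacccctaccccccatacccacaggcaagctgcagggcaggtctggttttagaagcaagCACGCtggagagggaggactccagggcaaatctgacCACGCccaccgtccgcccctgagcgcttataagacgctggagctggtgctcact
Ddit4: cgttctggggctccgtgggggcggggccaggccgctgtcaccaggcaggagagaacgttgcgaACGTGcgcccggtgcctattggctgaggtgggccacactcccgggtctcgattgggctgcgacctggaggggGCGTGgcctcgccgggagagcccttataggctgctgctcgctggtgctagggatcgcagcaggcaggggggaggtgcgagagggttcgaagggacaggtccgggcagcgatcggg
Hk2: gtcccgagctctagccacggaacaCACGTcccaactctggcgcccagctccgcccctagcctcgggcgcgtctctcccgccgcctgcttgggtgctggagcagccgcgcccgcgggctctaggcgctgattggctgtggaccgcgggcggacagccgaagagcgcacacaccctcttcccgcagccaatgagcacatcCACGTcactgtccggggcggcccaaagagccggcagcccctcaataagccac
Egln3: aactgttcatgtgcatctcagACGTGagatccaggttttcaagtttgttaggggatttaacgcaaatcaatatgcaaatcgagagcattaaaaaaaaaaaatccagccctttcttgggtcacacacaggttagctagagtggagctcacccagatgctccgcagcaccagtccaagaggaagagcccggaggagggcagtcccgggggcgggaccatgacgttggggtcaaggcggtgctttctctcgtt

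The *Adm* promoter (RefSeq, chr7:110627407-110627656 on the plus strand) held GCGTG in reverse at 90 and 54 bases before the start. *Ddit4* (chr10:59951771-59952020 on the minus strand) held 1 ACGTG and 1 GCGTG, *Hk2* (chr6:82774455-82774704 on the minus strand) held ACGTG in reverse at 226 and 52 bases before the start, and *Egln3* (chr12:54203875-54204124 on the minus strand) held 1 ACGTG. Their transcripts moved in different directions, as given below: *Adm*, *Hk2* and *Egln3* rose with LPS in WT cells and *Ddit4* fell.

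The most abundant glycolysis transcripts per kilobase in unstimulated WT cells were *Aldoa* (aldolase) at 365 ± 9.26 CPM per kb and *Pkm* (pyruvate kinase) at 360.1 ± 16.8 CPM per kb (SD, n = 3), which did not differ beyond their spread. *Ldha* (lactate dehydrogenase) followed at 292 ± 5.62 CPM per kb, then *Pfkp* at 91.4 ± 4.83 and, within their spread of each other, *Eno1* at 83.0 ± 1.74 and *Tpi1* at 82.8 ± 1.26 CPM per kb. *Aldoa*, *Pkm* and *Ldha* kept these first 3 places by mean level in all 6 groups. The ranks rest on uniquely mapped pairs, so those of *Gapdh*, *Pgk1*, *Eno1* and *Pgam1* are uncertain, as given below. The lowest were *Eno2*, the neuronal enolase, at 0.154 ± 0.0611 CPM per kb and, among the HIF genes, *Adm* at 0.0892 ± 0.0231 and *P4ha2* at 0.0342 ± 0.0130 CPM per kb.

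*Gapdh*, the dehydrogenase in the middle of the pathway, was listed at only 2.97 ± 0.295 CPM per kb in unstimulated WT cells. *Gapdh* was at 11.4, 11.8 and 13.7 CPM in unstimulated WT libraries, 10.2, 10.2 and 9.79 CPM in WT libraries given LPS with DMSO and 9.05, 9.98 and 7.99 CPM in those given LPS with defactinib. In IRF5 KO libraries the levels were 11.5, 11.3 and 12.4 CPM unstimulated, 11.9, 12.5 and 11.3 CPM with LPS and DMSO and 12.5, 12.7 and 12.7 CPM with LPS and defactinib. The WT libraries given LPS were all below every unstimulated library, and IRF5 KO LPS DMSO overlapped unstimulated IRF5 KO. Only uniquely mapped pairs were counted, and 78.0% of the 100-base windows of its longest coding transcript (GENCODE M21) occurred in a transcript of another gene, among them 81 annotated pseudogenes. The share was 67.0% for *Pgk1*, 59.0% for *Eno1*, 39.7% for *Pgam1* and 33.5% for *Bnip3*, and 0 for 16 of the 33 genes. The levels of these genes are uncertain for that reason, and changes between groups rest on the unique part of each.

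Glucose enters through the transporter GLUT1, encoded by *Slc2a1*, and is trapped by hexokinase. In WT libraries *Slc2a1* was at 237, 237 and 273 CPM unstimulated, 147, 119 and 144 CPM after LPS with DMSO and 126, 116 and 160.4 CPM after LPS with defactinib. Unstimulated IRF5 KO libraries were at 219, 163 and 223 CPM, those given LPS with DMSO at 145, 142 and 189 CPM and those given LPS with defactinib at 205, 227 and 208 CPM. Every stimulated WT library was below the unstimulated ones. *Hk2* (ENSMUSG00000000628, chr6:82725025-82774454 in mm10) encodes the inducible hexokinase. *Hk2* was at 109, 108 and 114 CPM in unstimulated WT libraries, 246, 222 and 234 CPM in WT libraries given LPS with DMSO and 35.7, 28.1 and 40.3 CPM in those given LPS with defactinib. In the knockout the values were 129.99, 121 and 139.7 CPM before LPS, 71.3, 72.1 and 178 CPM after LPS with DMSO and 109.8, 113 and 112 CPM after LPS with defactinib. In WT the 3 groups did not overlap, with LPS highest and LPS with defactinib lowest. Among the IRF5 KO LPS DMSO libraries, replicates 1 and 2 were below and replicate 3 above the unstimulated ones. *Hk1*, the constitutive hexokinase, stayed between 66.8 and 111 CPM.

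Phosphofructokinase commits sugar to glycolysis, and its subunits *Pfkl* (liver type) and *Pfkp* (platelet type) went opposite ways between the genotypes. In WT libraries *Pfkl* was at 37.1, 37.8 and 39.9 CPM unstimulated, 41.4, 30.2 and 31.2 CPM after LPS with DMSO and 65.6, 64.0 and 75.4 CPM after LPS with defactinib. The IRF5 KO libraries held 129, 108 and 140.2 CPM unstimulated, 113, 114 and 101 CPM after LPS with DMSO and 122, 140.1 and 123 CPM after LPS with defactinib. Every IRF5 KO library was above every WT library. *Pfkp* was at 826, 840.0 and 910.4 CPM in unstimulated WT libraries, 1622, 1729 and 1682 CPM in WT libraries given LPS with DMSO and 901, 713 and 932 CPM in those given LPS with defactinib. In IRF5 KO libraries the levels were 554, 637 and 548 CPM unstimulated, 739, 743 and 821 CPM with LPS and DMSO and 686, 671 and 678 CPM with LPS and defactinib. The WT LPS DMSO libraries were above all others. The bifunctional enzymes PFKFB3 and PFKFB4 set the level of the activator of phosphofructokinase. In WT libraries *Pfkfb3* was at 41.3, 40.05 and 44.2 CPM unstimulated, 55.5, 66.2 and 49.5 CPM after LPS with DMSO and 20.7, 22.9 and 36.0 CPM after LPS with defactinib. Unstimulated IRF5 KO libraries were at 24.7, 26.1 and 24.8 CPM, those given LPS with DMSO at 9.43, 9.23 and 25.4 CPM and those given LPS with defactinib at 10.1, 9.59 and 9.88 CPM. IRF5 KO LPS DMSO replicate 3 was among the unstimulated IRF5 KO libraries, and replicates 1 and 2 were just below all of those given defactinib. *Pfkfb4* was at 35.9, 36.6 and 34.4 CPM in unstimulated WT libraries, 10.3, 9.26 and 9.15 CPM in WT libraries given LPS with DMSO and 8.67, 8.64 and 12.05 CPM in those given LPS with defactinib. In the knockout the values were 31.9, 28.4 and 32.7 CPM before LPS, 5.16, 4.72 and 18.2 CPM after LPS with DMSO and 6.13, 4.64 and 5.87 CPM after LPS with defactinib. All stimulated libraries were below all unstimulated ones.

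The later steps of the pathway follow. In WT libraries *Pkm* was at 1759, 1746 and 1897 CPM unstimulated, 1747, 1605 and 1797 CPM after LPS with DMSO and 2171, 2315 and 2008 CPM after LPS with defactinib. The IRF5 KO libraries held 1634, 1438 and 1698 CPM unstimulated, 2254, 2249 and 1462 CPM after LPS with DMSO and 2187, 2341 and 2182 CPM after LPS with defactinib. The stimulated IRF5 KO libraries were above the unstimulated ones except for replicate 3 of LPS with DMSO. *Ldha* was at 977, 976 and 945 CPM in unstimulated WT libraries, 926, 937 and 983 CPM in WT libraries given LPS with DMSO and 999.9, 1033 and 912 CPM in those given LPS with defactinib. In IRF5 KO libraries the levels were 859.7, 836 and 864 CPM unstimulated, 992, 998 and 807 CPM with LPS and DMSO and 992, 983 and 975 CPM with LPS and defactinib. Over all 18 libraries *Ldha*, which makes lactate, spanned 807 to 1033 CPM, and the phosphoglycerate mutase *Pgam1* 93.4 to 132 CPM. The neuronal enolase *Eno2* was low throughout. In WT libraries *Eno2* was at 0.637, 1.05 and 0.495 CPM unstimulated, 1.32, 1.84 and 0.890 CPM after LPS with DMSO and 0.907, 0.794 and 0.642 CPM after LPS with defactinib. Unstimulated IRF5 KO libraries were at 0.327, 0.520 and 0.354 CPM, those given LPS with DMSO at 0.267, 0.451 and 0.783 CPM and those given LPS with defactinib at 0.383, 0.134 and 0.637 CPM. WT LPS DMSO was highest by its mean and overlapped the other WT groups. *Slc16a3*, the lactate exporter, spanned 42.3 to 111 CPM, *Pdk1*, which switches pyruvate dehydrogenase off, 13.3 to 35.0 CPM, and the aldolase *Aldoc* 31.2 to 75.9 CPM. WT LPS defactinib replicate 3 was the lowest of all libraries for *Pdk1* and *Aldoc*. The aldolase *Aldoa* spanned 1256 to 2027 CPM, the isomerases *Gpi1* and *Tpi1* 446 to 886 CPM and 185 to 355 CPM, the kinase *Pgk1* 104 to 163 CPM and the enolase *Eno1* 408 to 678 CPM. The plot of glycolysis levels by library shows 8 of these genes.

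**Figure D2:**
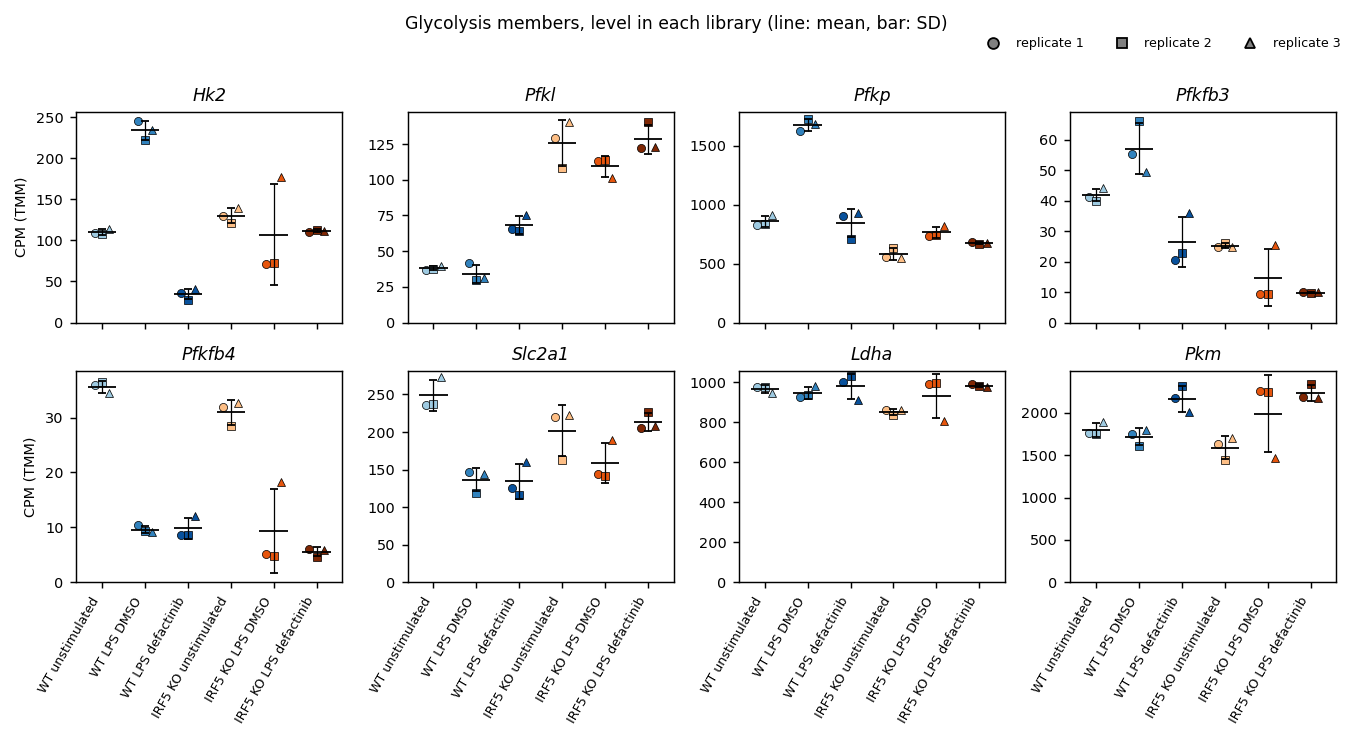
CPM (linear axis from 0) of 8 glycolysis genes in each of the 18 libraries, by group, with replicates as symbols, lines at the group means and bars of 1 SD (n = 3). Hk2 and Pfkp are highest in WT LPS DMSO, Pfkl is higher in every IRF5 KO library, and Ldha varies little.

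Among the HIF genes, *Hif1a* (ENSMUSG00000021109, chr12:73901375-73947530) encodes the oxygen-regulated subunit. *Hif1a* was at 169, 165 and 153 CPM in unstimulated WT libraries, 349, 273 and 264 CPM in WT libraries given LPS with DMSO and 162, 101 and 167 CPM in those given LPS with defactinib. In the knockout the values were 338, 331 and 317 CPM before LPS, 288, 277 and 415 CPM after LPS with DMSO and 348, 330.1 and 349 CPM after LPS with defactinib. Unstimulated WT and defactinib-treated WT libraries were below all others. The prolyl hydroxylases EGLN1 and EGLN3 mark HIF1A for degradation. In WT libraries *Egln1* was at 31.3, 31.2 and 29.2 CPM unstimulated, 17.5, 13.8 and 17.1 CPM after LPS with DMSO and 29.4, 31.2 and 30.8 CPM after LPS with defactinib. The IRF5 KO libraries held 45.2, 41.0 and 42.9 CPM unstimulated, 33.7, 37.5 and 36.1 CPM after LPS with DMSO and 33.9, 35.2 and 34.7 CPM after LPS with defactinib. The WT LPS DMSO libraries were the lowest 3 of the 18. *Egln3* (ENSMUSG00000035105, chr12:54178981-54203860) moved the opposite way in WT. *Egln3* was at 6.16, 5.99 and 6.04 CPM in unstimulated WT libraries, 26.9, 23.5 and 23.4 CPM in WT libraries given LPS with DMSO and 6.84, 4.19 and 5.96 CPM in those given LPS with defactinib. In IRF5 KO libraries the levels were 4.52, 4.33 and 3.78 CPM unstimulated, 2.37, 2.73 and 9.14 CPM with LPS and DMSO and 4.06, 3.94 and 4.12 CPM with LPS and defactinib. WT LPS DMSO libraries were above all others, and the next highest library was IRF5 KO LPS DMSO replicate 3. *Bnip3* and *Bnip3l* encode mitophagy receptors. In WT libraries *Bnip3* was at 17.7, 18.4 and 15.2 CPM unstimulated, 12.2, 11.6 and 13.1 CPM after LPS with DMSO and 17.3, 18.1 and 12.2 CPM after LPS with defactinib. Unstimulated IRF5 KO libraries were at 19.6, 16.3 and 18.7 CPM, those given LPS with DMSO at 15.8, 18.9 and 14.1 CPM and those given LPS with defactinib at 22.4, 20.6 and 21.8 CPM. IRF5 KO LPS defactinib libraries were the highest 3 of the 18, and WT LPS DMSO lay below both unstimulated groups.

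Of the secreted products, *Vegfa* (vascular growth factor, ENSMUSG00000023951, chr17:46016993-46032369) and *Adm* (adrenomedullin, a vasodilator peptide, ENSMUSG00000030790, chr7:110627661-110629820) had distinct patterns. *Vegfa* was at 11.8, 13.7 and 10.6 CPM in unstimulated WT libraries, 4.78, 3.07 and 3.38 CPM in WT libraries given LPS with DMSO and 7.28, 6.496 and 7.42 CPM in those given LPS with defactinib. In the knockout the values were 14.5, 12.5 and 15.03 CPM before LPS, 21.9, 23.04 and 10.3 CPM after LPS with DMSO and 35.3, 37.4 and 29.5 CPM after LPS with defactinib. In WT the 3 groups did not overlap and LPS with DMSO was lowest, whereas IRF5 KO libraries after LPS with defactinib were the highest 3 of the 18. In WT libraries *Adm* was at 0.112, 0.135 and 0.186 CPM unstimulated, 8.35, 6.78 and 7.14 CPM after LPS with DMSO and 0.349, 0.361 and 0.848 CPM after LPS with defactinib. The IRF5 KO libraries held 0.0935, 0 and 0.0197 CPM unstimulated, 1.53, 1.03 and 1.76 CPM after LPS with DMSO and 1.32, 1.23 and 1.57 CPM after LPS with defactinib. The stimulated libraries were above the unstimulated ones in both genotypes. The unstimulated IRF5 KO level rested on 7 counts in all against 192 after LPS with DMSO, and the unstimulated WT level on 23 against 906. By counting error alone the ratio of LPS with DMSO to unstimulated was 52.2 (exact 95% Poisson interval 34.6 to 82.7) in WT and 35.2 (16.8 to 88.8) in IRF5 KO, and the fitted fold changes of *Adm* depend on edgeR's prior count.

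*Ndrg1* encodes a stress-responsive protein that is a common hypoxia marker. *Ndrg1* was at 51.8, 49.9 and 55.9 CPM in unstimulated WT libraries, 222, 273 and 231 CPM in WT libraries given LPS with DMSO and 86.7, 86.0 and 169 CPM in those given LPS with defactinib. In IRF5 KO libraries the levels were 50.6, 64.6 and 51.8 CPM unstimulated, 88.2, 92.0 and 141 CPM with LPS and DMSO and 66.1, 66.7 and 67.4 CPM with LPS and defactinib. All stimulated libraries were above all unstimulated ones, WT LPS DMSO most. *Ddit4* (ENSMUSG00000020108, chr10:59949669-59951834) encodes REDD1, an inhibitor of mTORC1. In WT libraries *Ddit4* was at 2.96, 2.71 and 3.05 CPM unstimulated, 0.580, 0.537 and 0.686 CPM after LPS with DMSO and 7.81, 7.72 and 4.65 CPM after LPS with defactinib. Unstimulated IRF5 KO libraries were at 3.15, 3.23 and 3.87 CPM, those given LPS with DMSO at 11.1, 11.5 and 2.84 CPM and those given LPS with defactinib at 7.02, 8.09 and 7.99 CPM. WT LPS DMSO libraries were the lowest, and IRF5 KO LPS DMSO replicate 3 stood below its unstimulated group while replicates 1 and 2 were the highest of all. *Mxi1* encodes a MYC antagonist. *Mxi1* was at 24.2, 26.0 and 24.1 CPM in unstimulated WT libraries, 48.6, 43.5 and 43.0 CPM in WT libraries given LPS with DMSO and 17.5, 19.2 and 31.6 CPM in those given LPS with defactinib. In the knockout the values were 23.2, 18.8 and 21.1 CPM before LPS, 14.2, 13.9 and 22.2 CPM after LPS with DMSO and 15.7, 15.1 and 15.4 CPM after LPS with defactinib. WT LPS DMSO libraries were above all others, and WT LPS defactinib replicate 3 was the next. The collagen prolyl hydroxylase *P4ha1* spanned 48.6 to 115 CPM and *Bnip3l* 70.3 to 116 CPM. *Ankrd37*, an ankyrin repeat protein, was at most 2.37 CPM and *P4ha2*, the other collagen hydroxylase subunit, at most 0.510 CPM. The plot of HIF gene levels by library shows 8 of these genes.

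**Figure D3:**
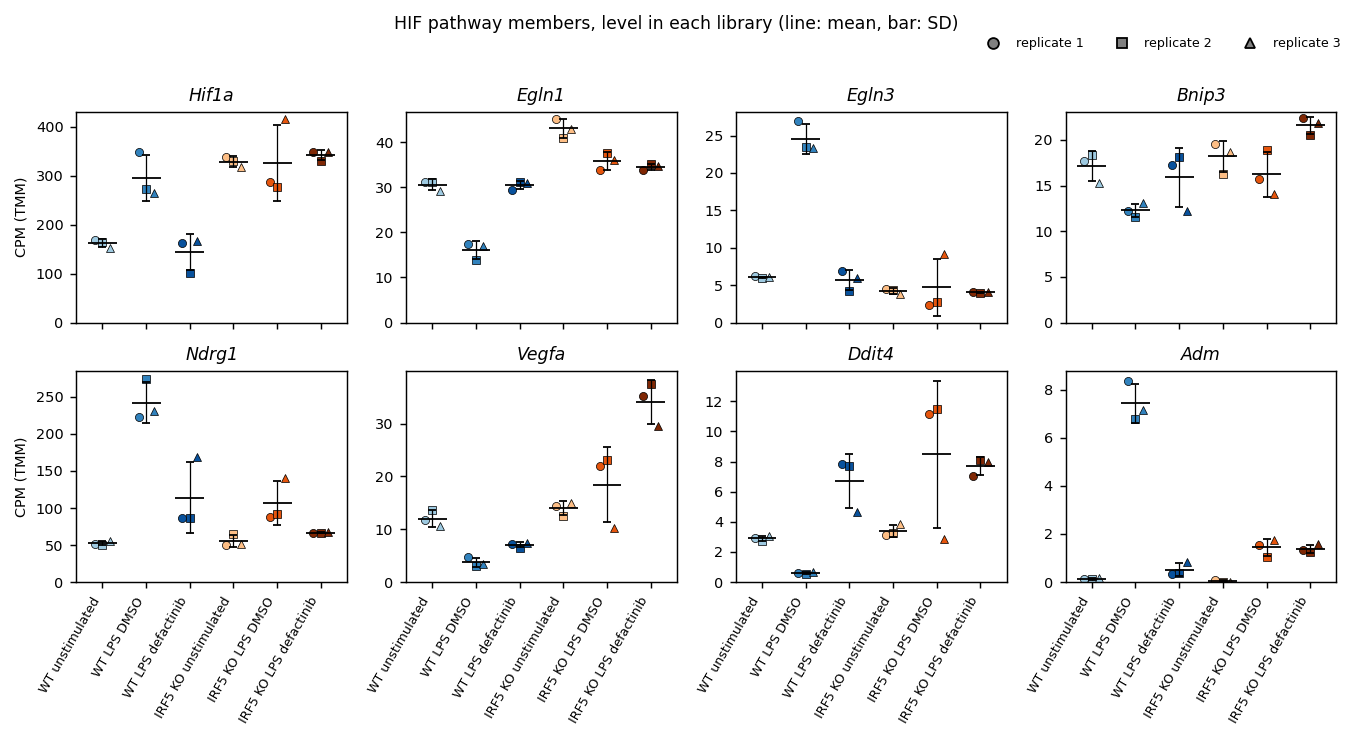
CPM (linear axis from 0) of 8 HIF pathway genes in each of the 18 libraries, by group, with replicates as symbols, lines at the group means and bars of 1 SD (n = 3). Egln3, Ndrg1 and Adm are highest in WT LPS DMSO, where Egln1, Vegfa and Ddit4 are lowest.

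Which of these genes LPS changed in WT cells was tested first. LPS raised *Adm*, *Ndrg1*, *Egln3*, *P4ha1* and *Hk2* and lowered *Ddit4*, *Pfkfb4* and *Vegfa*. That is 8 of 33 genes called, 24.2% against 21.3% of all genes tested in this comparison. Over all genes 11.6% were called higher and 9.71% lower, or 8.27% and 18.1% when scaled by library size alone. The libraries of the groups did not overlap for 21 of the 33 genes, against 64.6% of all genes. Of the 20 glycolysis genes 1 rose and 1 fell, and of the 13 HIF genes 4 rose and 2 fell. *Adm* had a log2 fold change of 5.67 (SE 0.48, adjusted p = 2.23e-07), *Ndrg1* of 2.20 (SE 0.24, adjusted p = 2.45e-06) and *Egln3* of 2.02 (SE 0.36, adjusted p = 0.000312). *P4ha1* had 1.06 (SE 0.12, adjusted p = 2.76e-06) and *Hk2* 1.09 (SE 0.25, adjusted p = 0.00273). The largest decrease was that of *Ddit4*, at -2.27 (SE 0.40, adjusted p = 0.0003), followed by *Pfkfb4* at -1.89 (SE 0.37, adjusted p = 0.000632) and *Vegfa* at -1.68 (SE 0.25, adjusted p = 5.39e-05). A further 9 genes had an adjusted p under 0.05 with a smaller change (17 in all, against 41.8% of all genes), among them *Slc2a1* at -0.86, *Hif1a* at 0.86, *Pfkp* at 0.97 and *Egln1* at -0.92. *Ldha* (-0.026, adjusted p = 0.838), *Pkm* (-0.069, adjusted p = 0.717) and *Pfkfb3* (0.45, adjusted p = 0.255) did not pass the test. The median log2 fold change was -0.023 for glycolysis genes, 0.35 for HIF genes and -0.0045 for all genes. The HIF median was the value of *P4ha2*, a gene at no more than 0.510 CPM. With 1 library left out in turn the HIF median ran from -0.11 without WT LPS DMSO replicate 1 to 0.74 without WT LPS DMSO replicate 3, and it was -0.024 when scaled by library size alone, so its sign rested on single libraries and on the scaling. The glycolysis median was 0.015 with DESeq2's size factors and -0.40 with library size alone, so its sign rested on the scaling too.

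Calls for the 21 other glycolysis genes tested were 1 higher and 3 lower, and those for 34 other HIF pathway genes 4 higher and 4 lower. *Cited2*, a HIF target that competes with HIF1A for its coactivator, rose by 4.24 and *Slc2a6*, a hexose transporter, by 1.91 on the log2 scale. The hypoxia-responsive genes *Ppfia4* and *Fut11* changed by -1.47 and -1.05. Scaled by library size alone, *Hk2* (0.71) and *P4ha1* (0.68) no longer passed the fold threshold while *Slc2a1* (-1.24), *Egln1* (-1.30) and *Ankrd37* (-1.53) were called lower, which made 3 genes higher and 6 lower. *P4ha1* was not called without WT LPS DMSO replicate 1 (0.99).

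In IRF5 KO cells LPS raised *Adm* and *Ddit4* and lowered *Pfkfb4*. These 3 of 33 genes are 9.09%, against 13.3% of all genes. Over all genes 7.07% were called higher and 6.28% lower, or 5.75% and 10.8% when scaled by library size alone. Library values of the groups compared stood apart for 6 of the 33 genes, against 40.1% of all genes. *Adm* had a log2 fold change of 5.05 (SE 0.55, adjusted p = 2.61e-05) and was 6.86 without IRF5 KO unstimulated replicate 1 and 4.86 without IRF5 KO LPS DMSO replicate 3. *Ddit4* rose by 1.31 (SE 0.36, adjusted p = 0.0128), the opposite direction to WT, although its libraries overlapped, with replicate 3 below the unstimulated ones. It was not called without replicate 1 or 2 of IRF5 KO LPS DMSO, and was at 1.72 (adjusted p = 4.14e-07) without replicate 3. *Pfkfb4* changed by -1.72 (SE 0.36, adjusted p = 0.00393), or by -2.65 without replicate 3. In a fit of these groups alone, *Pfkfb4* (adjusted p = 0.113) and *Ddit4* (adjusted p = 0.137) were not called. Without replicate 3, *Pfkfb3* (-1.43, adjusted p = 3.64e-06) and *Ankrd37* (-1.84, adjusted p = 0.00507) were called as well, 5 of 33 genes against 26.2% of all genes. *Hk2*, at -0.28 (adjusted p = 0.39) with all libraries, was at -0.86 (adjusted p = 5.34e-06) without it. With no fold threshold 23 of 33 genes had an adjusted p under 0.05, 14 higher and 9 lower, against 58.3% of all genes in that fit. Under the fold threshold, the higher ones were *Ndrg1* (0.69), *Vegfa* (0.68), *Gpi1* (0.60), *P4ha1* (0.58), *Aldoa* (0.53), *Pgk1* (0.51), *Pkm* (0.50), *Eno1* (0.40), *Pfkp* (0.35), *Tpi1* (0.34), *Ldha* (0.22) and *Pgam1* (0.21), although with all libraries the signs of *Eno1*, *Tpi1*, *Ldha* and *Pgam1* turned under scaling by library size alone. The lower ones beside *Hk2* were *Slc16a3* (-0.87), *Egln3* (-0.73), *Mxi1* (-0.59), *Slc2a1* (-0.50) and *Egln1* (-0.27). As a median, the log2 fold change over all libraries was 0.065 for glycolysis genes, 0.18 for HIF genes and 0.0063 for all genes, and without replicate 3 the 3 medians were 0.15, 0.083 and -0.0055. Among 21 other glycolysis genes tested the calls were 0 higher and 2 lower, and among 34 other HIF pathway genes 2 higher and 4 lower. Without replicate 3 they were 1 higher and 5 lower, and 3 higher and 9 lower. *Cited2* was at 2.46 and *Vhl*, the ubiquitin ligase subunit that recognises HIF1A, at -1.27. *Fut11* was at -1.23 and *Tigar*, which lowers glycolytic flux, at -1.003. Without replicate 3 these 4 genes were also called, at 2.63, -2.42, -1.58 and -1.79 in that order.

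The difference between the genotypes in the LPS response was tested as an interaction, given as WT minus IRF5 KO. It was called for 6 of 33 genes, 18.2% against 9.83% of all genes. Over all genes 6.33% were called higher and 3.49% lower, or 4.17% and 5.15% when scaled by library size alone. *Hk2* (1.37, SE 0.36, adjusted p = 0.0177), *Egln3* (1.84, SE 0.50, adjusted p = 0.0212), *Ndrg1* (1.26, SE 0.32, adjusted p = 0.0152) and *Mxi1* (1.19, SE 0.28, adjusted p = 0.0103) had a higher log2 fold change with LPS in WT than in IRF5 KO. *Ddit4* (-3.57, SE 0.54, adjusted p = 0.000674) and *Vegfa* (-2.08, SE 0.34, adjusted p = 0.00119) had a lower one. *Hk2* was not called when scaled by library size alone or without a filter on low counts, nor was *Egln3* without IRF5 KO unstimulated replicate 1. Without IRF5 KO LPS DMSO replicate 3 these genes were called at 1.95, 2.74, 1.51, 1.45, -3.99 and -2.36 in the order above, and *Pfkfb3* (1.88, adjusted p = 5.72e-06) and *Hif1a* (1.08, adjusted p = 0.000599) were called too. That made 8 of 33 against 23.6% of all genes. Calls for the 21 other glycolysis genes tested were 1 higher and 0 lower, and those for 34 other HIF pathway genes 4 higher and 3 lower. The same counts without replicate 3 were 5 higher and 0 lower, and 9 higher and 3 lower. *Slc2a6* (1.29) and *Cited2* (1.78) were higher in this contrast, and *Bhlhe40*, a hypoxia-induced repressor (-1.42), and *Ppfia4* (-1.12) lower. All 4 were called without replicate 3, at 1.37, 1.61, -1.69 and -1.16 in that order.

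**Figure D4:**
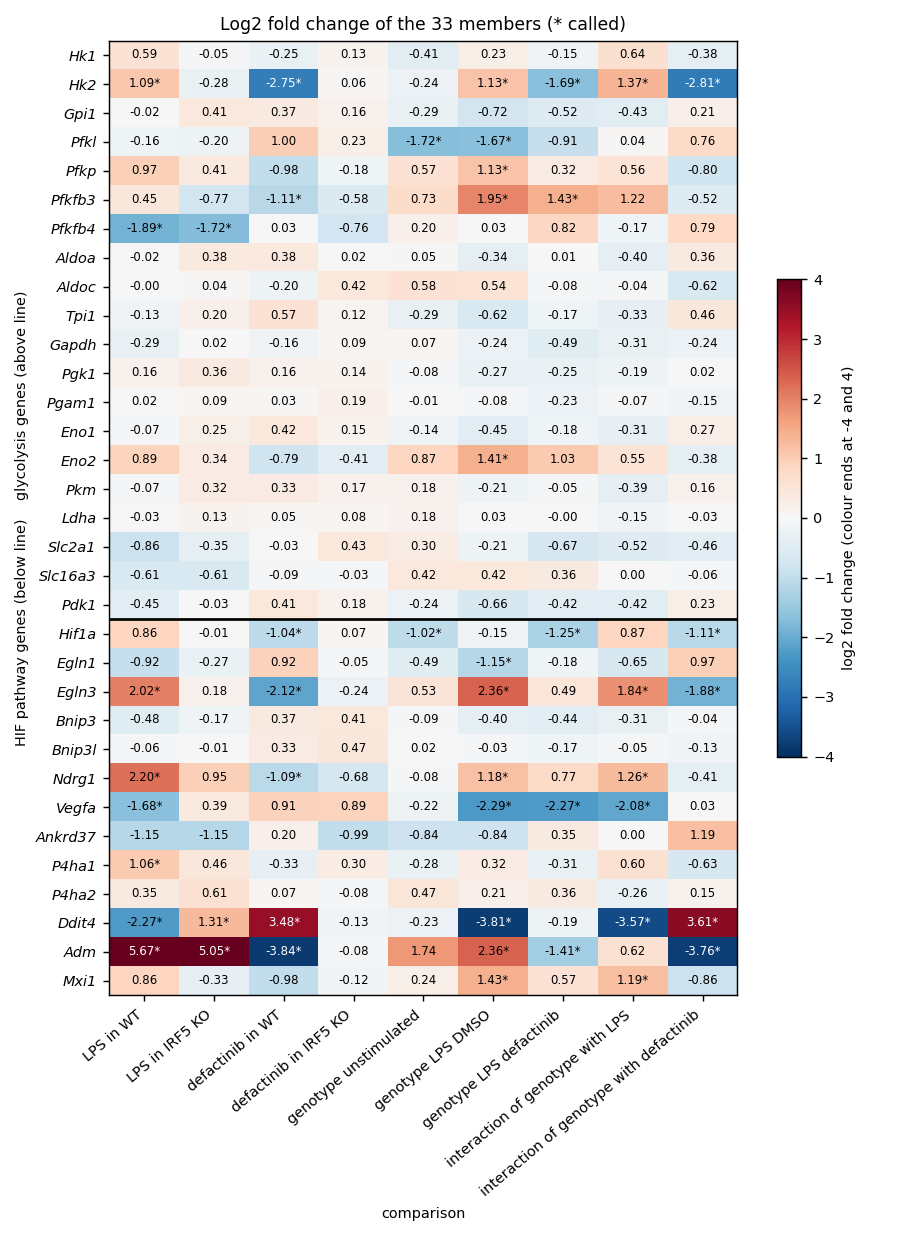
Log2 fold change of the 33 genes (rows) in the 9 comparisons (columns), with asterisks at called values and colour limited to -4 to 4. Genotype columns are WT minus IRF5 KO. The defactinib column of IRF5 KO cells holds no called gene.

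The map of log2 fold changes sets the 9 comparisons side by side, and those that share a group of libraries are not independent. The effect of defactinib on LPS-stimulated WT cells was tested against the same WT LPS DMSO libraries as the LPS response, so the values of both comparisons are not independent. Defactinib lowered *Adm*, *Hk2*, *Egln3*, *Pfkfb3*, *Ndrg1* and *Hif1a* and raised *Ddit4*. These are 7 of 33 genes, 21.2% against 29.1% of all genes, with 2 glycolysis genes lower, 4 HIF genes lower and 1 HIF gene higher. Over all genes 10.4% were called higher and 18.6% lower, or 15% and 15.5% when scaled by library size alone. The compared groups had no overlapping libraries for 19 of the 33 genes, against 62.5% of all genes. *Adm* changed by -3.84 (SE 0.42, adjusted p = 2.77e-06), *Hk2* by -2.75 (SE 0.27, adjusted p = 9.72e-07) and *Egln3* by -2.12 (SE 0.36, adjusted p = 0.000174). *Pfkfb3* was at -1.11 (SE 0.30, adjusted p = 0.00577), *Ndrg1* at -1.09 (SE 0.23, adjusted p = 0.000868) and *Hif1a* at -1.04 (SE 0.18, adjusted p = 0.000161). *Ddit4* rose by 3.48 (SE 0.41, adjusted p = 5.71e-06). Just under the fold threshold were *Pfkl* at 0.995 (SE 0.13, adjusted p = 1.08e-05), *Pfkp* at -0.98, *Mxi1* at -0.98, *Egln1* at 0.92 and *Vegfa* at 0.91. Counted with no fold threshold, 21 of 33 genes had an adjusted p under 0.05, against 57% of all genes. The remaining ones were *Tpi1* (0.57), *Eno1* (0.42), *Aldoa* (0.38), *Gpi1* (0.37), *Bnip3* (0.37), *Pkm* (0.33) and *Bnip3l* (0.33), all higher, and *P4ha1* (-0.33) and *Hk1* (-0.25), both lower. *Slc2a1* (-0.028, adjusted p = 0.887) and *Ldha* (0.049, adjusted p = 0.635) did not pass the test. Over each list, the median log2 fold change was 0.031 for glycolysis genes, 0.073 for HIF genes and 0.086 for all genes. Here too the HIF median was the value of *P4ha2*, at no more than 0.510 CPM. As each library was left out, the HIF median was lowest without WT LPS DMSO replicate 3 (-0.29) and highest without replicate 1 of that group (0.38), so its sign rested on single libraries.

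The calls near the threshold depended on single libraries and on scaling. *Pfkfb3* was not called without replicate 1 of WT LPS defactinib or replicate 2 of WT LPS DMSO, *Hif1a* without replicate 2 of the former or replicate 1 of the latter, and *Ndrg1* without replicate 1 or 2 of the former or replicate 2 of the latter. Scaled by library size alone, the 3 were at -0.91, -0.84 and -0.90 and none was called, while *Pfkl* (1.19), *Egln1* (1.12) and *Vegfa* (1.11) were called higher, which made 4 genes higher and 3 lower. *Pfkl* was also called in 8 of the 18 fits with 1 library left out. Without WT LPS defactinib replicate 3, *Pfkp* (-1.04) and *Mxi1* (-1.27) were called lower. Without WT LPS DMSO replicate 1, *Vegfa* (1.15) was called higher. Among 21 other glycolysis genes tested the calls were 2 higher and 4 lower, and among 34 other HIF pathway genes 2 higher and 8 lower. *Cited2* changed by -3.37 and *Pdgfb*, a growth factor, by -2.33. *Pdp2* and *Pdp1*, the phosphatases that switch pyruvate dehydrogenase on, changed by -2.92 and -2.80, and *Ppfia4* rose by 1.27.

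In LPS-stimulated IRF5 KO cells none of the 33 genes was called for defactinib, by edgeR's test or by DESeq2, against 0.919% of all genes called by edgeR and 3.34% by DESeq2. Over all genes 0.16% were called higher and 0.76% lower, or 0.0766% and 1.26% when scaled by library size alone. The libraries of the groups did not overlap for 11 of the 33 genes, against 26.6% of all genes. At an unadjusted p under 0.05 there were 6 genes of 33, against 23.3% of all genes. *Bnip3l* alone had an adjusted p under 0.05 (1 gene, against 3.36% of all genes), at 0.47 (SE 0.11, adjusted p = 0.0329), and was at 0.37 (adjusted p = 0.0319) without IRF5 KO LPS DMSO replicate 3. *Vegfa* was at 0.89 (SE 0.24, adjusted p = 0.0516), was called without replicate 1 or 2 of IRF5 KO LPS DMSO, and was at 0.60 (adjusted p = 0.0279) without replicate 3. *Hk2* was at 0.060 (SE 0.25, adjusted p = 0.915) with all libraries and at 0.64 (adjusted p = 0.00282) without replicate 3. Without that library *Slc2a1* (0.58, adjusted p = 0.024) and *Egln3* (0.66, adjusted p = 0.0301) also had an adjusted p under 0.05, which made 5 of 33 genes against 7.83% of all genes, and none of the 33 was called, against 1.45% of all genes. *Pfkfb4* and *Ankrd37* were called lower without replicate 2, at -1.09 and -1.51, and were at 0.17 and -0.31 without replicate 3. The median log2 fold change was 0.12 for glycolysis genes, -0.075 for HIF genes and -0.041 for all genes, and 0.059, 0.13 and -0.0034 without replicate 3, where the HIF median turned its sign. Calls for the 21 other glycolysis genes tested were 0 higher and 0 lower, and those for 34 other HIF pathway genes 1 higher and 0 lower. The called gene was *Hilpda*, a lipid droplet protein induced by HIF, at 1.54 (adjusted p = 0.0111), and at 1.49 without replicate 3. It was named after its values were seen. Without replicate 3 the counts were 1 higher and 0 lower, and 2 higher and 0 lower.

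Tested as an interaction, WT minus IRF5 KO, the defactinib effect differed between the genotypes for 5 of 33 genes, 15.2% against 22.8% of all genes. Over all genes 10.5% were called higher and 12.3% lower, or 18.2% and 8.17% when scaled by library size alone. *Adm* (-3.76, SE 0.56, adjusted p = 9.76e-05), *Hk2* (-2.81, SE 0.36, adjusted p = 2.93e-05), *Egln3* (-1.88, SE 0.50, adjusted p = 0.00862) and *Hif1a* (-1.11, SE 0.25, adjusted p = 0.00266) had a lower log2 fold change in WT than in IRF5 KO, and *Ddit4* (3.61, SE 0.54, adjusted p = 9.32e-05) a higher one. In IRF5 KO alone these genes were at -0.075, 0.060, -0.24, 0.068 and -0.13, and none passed the test with all libraries. Without IRF5 KO LPS DMSO replicate 3 they were at -3.94, -3.39, -2.78, -1.32 and 4.03, and *Pfkfb3* (-1.19) and *Mxi1* (-1.12) were called too, 7 of 33 against 31.6% of all genes. *Hif1a* was not called without replicate 1 or 2 of IRF5 KO LPS DMSO, replicate 2 of WT LPS defactinib or replicate 1 of WT LPS DMSO, nor when scaled by library size alone (-0.77). That scaling added higher calls for *Pfkl* (1.08) and *Egln1* (1.29), which made 3 genes higher and 3 lower. Among 21 other glycolysis genes tested the calls were 3 higher and 3 lower, and among 34 other HIF pathway genes 2 higher and 7 lower. Leaving out replicate 3 gave 4 higher and 4 lower, and 1 higher and 10 lower. *Cited2* (-4.001), *Kdm3a*, a histone demethylase (-1.69), *Pdp2* (-2.39) and *Tigar* (-1.28) were lower in this contrast and *Ppfia4* (1.86) and *Eno3* (1.42) higher. In that order these 6 were at -3.83, -2.20, -3.15, -2.07, 1.90 and 1.63 without replicate 3, all called.

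The genotypes were then compared within each condition, as WT minus IRF5 KO. Before LPS *Pfkl* and *Hif1a* were lower in WT, 2 of 33 genes or 6.06% against 7.31% of all genes. Over all genes 3.8% were called higher and 3.51% lower. Library values of the groups compared stood apart for 22 of the 33 genes, against 51.4% of all genes. *Pfkl* had a log2 fold change of -1.72 (SE 0.13, adjusted p = 3.07e-07) and *Hif1a* of -1.02 (SE 0.18, adjusted p = 0.00089). *Hif1a* was not called without IRF5 KO unstimulated replicate 1 or WT unstimulated replicate 3, and ranged from -1.05 to -0.97 as each library was left out. *Hk2* (-0.24, adjusted p = 0.639), *Slc2a1* (0.30, adjusted p = 0.219) and *Egln3* (0.53, adjusted p = 0.399) did not pass the test. *Adm* was at 1.74 (adjusted p = 0.0919), and was called without IRF5 KO unstimulated replicate 1, at 3.55. As a median, the log2 fold change was 0.059 for glycolysis genes, -0.090 for HIF genes and -0.011 for all genes. Calls for the 21 other glycolysis genes tested were 0 higher and 2 lower, and those for 34 other HIF pathway genes 1 higher and 2 lower. *Eno3*, the muscle enolase, was at -1.47 and *Ppfia4* at -1.18.

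After LPS with DMSO the genotypes differed most, with 12 of 33 genes called, 36.4% against 25.8% of all genes. Over all genes 14% were called higher and 11.8% lower, or 10.4% and 16.8% when scaled by library size alone. The compared groups had no overlapping libraries for 20 of the 33 genes, against 50.9% of all genes. Of the glycolysis genes 4 were higher in WT, *Pfkfb3* (1.95, SE 0.31, adjusted p = 0.000118), *Eno2* (1.41, SE 0.48, adjusted p = 0.0216), *Pfkp* (1.13, SE 0.10, adjusted p = 5.93e-07) and *Hk2* (1.13, SE 0.26, adjusted p = 0.00194), and *Pfkl* was lower (-1.67, SE 0.13, adjusted p = 1.54e-07). Of the HIF genes 4 were higher, *Egln3* (2.36, SE 0.37, adjusted p = 9.54e-05), *Adm* (2.36, SE 0.39, adjusted p = 0.000145), *Mxi1* (1.43, SE 0.20, adjusted p = 4.21e-05) and *Ndrg1* (1.18, SE 0.23, adjusted p = 0.000608). The HIF genes that were lower in WT were *Ddit4* (-3.81, SE 0.41, adjusted p = 3.91e-06), *Vegfa* (-2.29, SE 0.25, adjusted p = 4.25e-06) and *Egln1* (-1.15, SE 0.094, adjusted p = 2.89e-07). Without IRF5 KO LPS DMSO replicate 3 the count was 12 of 33 against 34.5% of all genes, and the 12 genes above were those called. The glycolysis genes were then at 2.61, 1.91, 1.18, 1.70 and -1.73 in the order above. Among the HIF genes *Egln3* was at 3.27, *Adm* at 2.53, *Mxi1* at 1.68, *Ndrg1* at 1.43, *Ddit4* at -4.23, *Vegfa* at -2.58 and *Egln1* at -1.14. With no fold threshold 25 of 33 genes had an adjusted p under 0.05, 11 higher and 14 lower, against 65.5% of all genes in that fit. The genes under the fold threshold were *Gpi1* (-0.91), *Pdk1* (-0.81), *Tpi1* (-0.77), *Eno1* (-0.61), *Aldoa* (-0.50), *Bnip3* (-0.50), *Pgk1* (-0.42), *Pkm* (-0.39), *Gapdh* (-0.28) and *Pgam1* (-0.20), all lower in WT, and *Pfkfb4* (0.95), *Slc16a3* (0.67) and *Hk1* (0.23), all higher, although with all libraries the signs of *Pfkfb4* and *Hk1* turned under scaling by library size alone. Over each list, the median log2 fold change over all libraries was -0.14 for glycolysis genes, -0.032 for HIF genes and -0.047 for all genes, and -0.13, -0.027 and -0.015 without replicate 3. The HIF median ran from -0.29 without WT LPS DMSO replicate 1 to 0.0087 without IRF5 KO LPS DMSO replicate 1 as each library was left out.

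*Hk2* lost its call in this comparison if replicate 1 or 2 of IRF5 KO LPS DMSO was left out and in a fit of these groups alone (adjusted p = 0.0704). *Eno2*, at under 2 CPM, lost it without either of these libraries, without WT LPS DMSO replicate 2 and in that smaller fit (adjusted p = 0.0703). Scaled by library size alone, *Hk2* (0.83), *Pfkp* (0.87), *Eno2* (1.13, adjusted p = 0.0655) and *Ndrg1* (0.90) were not called. Among 21 other glycolysis genes tested the calls were 2 higher and 5 lower, and among 34 other HIF pathway genes 6 higher and 4 lower. With replicate 3 left out they were 5 higher and 3 lower, and 11 higher and 6 lower. *Pdp1* (2.005), *Ldhb* (1.36), *Cited2* (1.999) and *Egln2*, another prolyl hydroxylase (1.002), were higher in WT, and *Eno3* (-1.99), *Galm* (-1.08), *Ppfia4* (-2.31) and the transferrin receptor *Tfrc* (-1.77) lower. The 8 genes were called without replicate 3 too, at 3.97, 1.32, 1.83, 1.62, -2.20, -1.22, -2.35 and -1.89 in that order.

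After LPS with defactinib, a comparison that does not use the IRF5 KO LPS DMSO libraries as a group, 5 of 33 genes were called, 15.2% against 17.3% of all genes. Over all genes 8.45% were called higher and 8.87% lower. The libraries of the groups did not overlap for 24 of the 33 genes, against 51.5% of all genes. *Vegfa* (-2.27, SE 0.25, adjusted p = 3.77e-06), *Hk2* (-1.69, SE 0.26, adjusted p = 0.000117), *Adm* (-1.41, SE 0.41, adjusted p = 0.0139) and *Hif1a* (-1.25, SE 0.18, adjusted p = 5.17e-05) were lower in WT and *Pfkfb3* was higher (1.43, SE 0.31, adjusted p = 0.00188). *Hk2* and *Adm* thus differed in the opposite direction to the comparison after LPS with DMSO, with which this one shares no library. *Adm* was not called without IRF5 KO LPS defactinib replicate 3 or without WT LPS defactinib replicate 1 or 2. *Ddit4* was at -0.19 (adjusted p = 0.7) and *Egln3* at 0.49 (adjusted p = 0.31). The median log2 fold change was -0.16 for glycolysis genes, -0.18 for HIF genes and 0.025 for all genes. Calls for the 21 other glycolysis genes tested were 2 higher and 1 lower, and those for 34 other HIF pathway genes 4 higher and 7 lower. *Bhlhe40* was at -2.92, *Cited2* at -2.002, *Pdp2* at -1.47 and *Vhl* at 1.17.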

How the data were processed

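Per the authors' methods and the header of the deposited table, 150 bp read pairs were aligned to mm10 with STAR, and uniquely mapped pairs were counted over exons per Ensembl gene with featureCounts 1.6.3, reverse stranded. The deposited values are raw counts per gene, without normalization. DESeq2 is among the tools in the submitters' processing notes.

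All 18 libraries entered 1 fit of a mean per group with edgeR 4.0.16 (R 4.3.3), TMM scaling, filterByExpr and a robust quasi-likelihood F test, two-sided, and p-values were adjusted by Benjamini-Hochberg over 15663 tested genes. The SE of a log2 fold change was taken from F (the absolute value over the root of F). The scripts were tested on simulated data. Each p-value sets a difference against the spread of libraries within groups, estimated over all 6 groups and not only those compared. That spread may be technical. Alternatives were DESeq2 1.42.0, its size factors, library size alone, no filter, no fold threshold, only the groups compared, the replicate number as a block, and leaving out each library in turn. Replicate numbers were not taken as pairs, since residuals of same-numbered libraries correlated at a median of 0.0082 over 45 pairs, 9 of them above 0.1. All 3 pairs of 1 group pair, IRF5 KO LPS DMSO with WT LPS defactinib, exceeded 0.1 (0.195, 0.249 and 0.346). Both groups enter the interaction with defactinib, where the block called 5 genes, as without it.

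The 33 genes and the lists of other pathway and marker genes were chosen with earlier results of these data known, so that no test is independent of that knowledge. Values in every library are given for the called genes with the 3 largest rises and falls per list and comparison, and for Hk2, Slc2a1, Pfkfb3, Ldha, Pkm, Gapdh, Hif1a, Egln3, Vegfa, Bnip3 and Ndrg1. Other pathway genes are named for the 2 largest rises and 2 largest falls per list and comparison among called genes whose log2(CPM + 0.5) averaged 3 or more, and Hilpda, which averaged 2.94, was named after its values were seen. Gene positions are those of the count table in mm10, and 29 of the 33 equal GENCODE M21. Promoter windows were taken from RefSeq.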

Additional observations from a re-analysis of the deposited data

Results flagged for a closer look

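Responses that differed between the genotypes in a test of the difference itself are listed here. For LPS, the response in WT minus that in IRF5 KO was 1.37 for Hk2, 1.84 for Egln3, 1.26 for Ndrg1, 1.19 for Mxi1, -2.08 for Vegfa and -3.57 for Ddit4 on the log2 scale, by edgeR's interaction test. For defactinib it was -2.81 for Hk2, -1.11 for Hif1a, -1.88 for Egln3, 3.61 for Ddit4 and -3.76 for Adm. Both tests use the WT LPS DMSO and IRF5 KO LPS DMSO libraries, so they are not independent of each other, and IRF5 KO LPS DMSO replicate 3 stood apart from its group.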

How the results depend on the processing

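The 48 called combinations of gene and comparison were recomputed under 24 alternatives, 1152 values in all. Of these 1111 kept their direction and their call, 41 kept the direction and lost the call, and 0 were reversed. In 18 of the alternatives 1 library was left out, often one outside the groups compared, so many of these values could change little. The tally does not hold calls that were gained. With no fold threshold the genes called were 17 (41.8% of all genes) for LPS in WT, 11 (37.5% of all genes) for LPS in IRF5 KO, 21 (57% of all genes) for defactinib in WT, 1 (3.36% of all genes) for defactinib in IRF5 KO, 5 (15.3% of all genes), 21 (52.2% of all genes) and 14 (36.3% of all genes) for the genotypes unstimulated, after LPS with DMSO and after LPS with defactinib, and 11 (17.1% of all genes) and 12 (37% of all genes) for the interactions with LPS and defactinib. Fitting only the groups compared left 1 gene for LPS in IRF5 KO, where 1.08% of all genes were called against 13.3%. With 1 library left out in turn the counts, with the range of the share of all genes called in parentheses, were 7 to 9 (19.1 to 23.1%) for LPS in WT, 3 to 5 (6.46 to 26.2%) for LPS in IRF5 KO, 5 to 9 (26.3 to 30.7%) for defactinib in WT, 0 to 3 (0.125 to 5.55%) for defactinib in IRF5 KO, 1 to 2 (5.52 to 8.58%), 10 to 12 (21.3 to 34.5%) and 4 to 5 (14.9 to 20.3%) for the genotypes in the order above, and 5 to 8 (6.65 to 23.6%) and 4 to 7 (20.2 to 31.6%) for the interactions. LPS in IRF5 KO called 5 genes without IRF5 KO LPS DMSO replicate 3 (26.2% of all genes), defactinib in IRF5 KO called 1 and 3 without replicates 1 and 2 of that group (5.45% and 5.55% of all genes, against 0.919%), and the unstimulated genotypes differed in 1 gene without WT unstimulated replicate 3. The replicate number as a block, which is no pairing by the labels, gave 8, 3, 8, 0, 2, 12, 5, 7 and 5 genes in the same order, against 21.2, 14.3, 29.2, 0.524, 7.14, 26, 17.1, 10.6 and 23.1% of all genes, and ended none of the calls. DESeq2 called 9, 3, 7, 0, 3, 12, 5, 7 and 5 genes in that order, against 21, 13.9, 28.5, 3.34, 7.81, 25.7, 18, 12.5 and 23.8% of all genes. Its added calls, all higher, were Pfkp for LPS in WT (1.005), Adm for the unstimulated genotypes (1.80) and Pfkfb3 for the interaction with LPS (1.24). Scaling by library size alone moved the median of all genes by -0.38 for LPS in WT, -0.24 for LPS in IRF5 KO, 0.20 and -0.13 for defactinib in WT and IRF5 KO, -0.11 and -0.25 for the genotypes unstimulated and after LPS with DMSO, and -0.14 and 0.33 for the interactions. The share of called genes that were higher then went from 54.5 to 31.4% and 53 to 34.8% for LPS in WT and IRF5 KO, 35.9 to 49.2% and 17.4 to 5.71% for defactinib in WT and IRF5 KO, 54.4 to 38.1% for the genotypes after LPS with DMSO, and 64.5 to 44.7% and 46.2 to 69% for the interactions. That scaling also turned the sign of the glycolysis median for LPS in IRF5 KO (-0.18), for the unstimulated genotypes (-0.051) and for the interaction with defactinib (0.29), and that of the HIF median for LPS in WT (-0.024) and for the interactions with LPS (-0.19) and defactinib (0.19). The causes were not tested. Depth limits the genes under 2 CPM, by mean Eno2, Ankrd37 and P4ha2 in all groups, Adm in all but WT LPS DMSO, and Ddit4 in WT LPS DMSO, at 0.537 to 0.686 CPM.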
